A study of Mus musculus with 8 samples.

Results

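The sham cortex was described here from the 4 libraries labelled Sham, which were chosen by that label alone out of 8 libraries in all. Each library held RNA from the right cerebral cortex of 1 male wild-type C57BL/6 mouse (C57BL/6 J in the methods of the study), listed as 14 weeks old. In the sham operation both common carotid arteries were exposed under isoflurane without placement of the microcoils that narrow them, and the tissue was taken 3 weeks later. No unoperated mouse was among these 4, so the levels below are those of a cortex 3 weeks after anaesthesia and neck surgery. Messenger RNA was sequenced in bulk, and fewer cells of a type and less RNA per cell cannot be told apart in such data.

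The cerebral cortex is built from excitatory projection neurons, which release glutamate and are stacked in layers, and from local interneurons, which release GABA. Astrocytes clear glutamate and potassium around synapses, oligodendrocytes wrap axons in myelin, microglia are the resident immune cells, and endothelial and mural cells form the vessel wall. Resting neurons spend most of their energy on pumping sodium and on synaptic transmission, and they keep a set of immediate-early genes ready to be switched on by firing.

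The 4 libraries held between 16759364 and 18564612 counted read pairs, and a floor of 3 counts corresponded to 0.162 to 0.179 CPM (counts per 1000000 counted pairs). Between 23731 and 24299 genes had at least 1 count per library, and 14498 genes reached 1 CPM in all 4, of which 13232 were protein coding. Sham mouse 3 stood apart from the other 3 in the log2 CPM values. On the first principal component, which carried 56.0% of the variance, sham mice 1 to 4 lay at -0.12, -0.03, 0.24 and -0.08. It was the library farthest from the mean of the 4 for 39.4% of the 13184 genes averaging 50 or more counts, against 18.4 to 22.2% for each of the others.

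The most abundant transcripts were compared as TPM (transcripts per 1000000), which corrects for gene length. The highest level was that of Fth1, the heavy chain of the iron store ferritin, at 8039 ± 937 TPM (SD, n = 4). Calm2 stood at 4402 ± 173 TPM, and Calm3 at 3043 ± 165 TPM. Both encode the calcium sensor calmodulin. Neuronal genes of calcium signalling filled several other places among the top 20. Nrgn, which encodes the calmodulin-binding protein neurogranin, reached 3981 ± 788 TPM. Camk2n1, an inhibitor of calcium/calmodulin-dependent kinase II, reached 2279.6 ± 379 TPM, and Camk2a, the alpha subunit of that kinase, reached 2052 ± 137 TPM. The sensor, 1 of its binding proteins, its kinase and an inhibitor of that kinase were thus all within the top 20.

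Glial and secreted products were also among these 20 genes. Apoe, the lipid carrier made mainly by astrocytes in the brain, stood at 2769 ± 59.9 TPM. Sparcl1, an astrocyte protein that acts on synapses, stood at 3023 ± 134 TPM, and Cst3, the protease inhibitor cystatin C, at 2496 ± 141 TPM. Cpe, the enzyme that trims neuropeptide precursors, reached 4012 ± 235 TPM and Psap, the precursor of the lysosomal saposins, 2521 ± 78.8 TPM. The remaining places were held by translation factors (Eef1a1 at 3419.6 ± 187 TPM and its neuronal counterpart Eef1a2 at 2076 ± 112 TPM), by genes of energy use and by the membrane glycoprotein Gpm6a at 2527 ± 214 TPM. Atp1b1, the beta subunit of the sodium pump, stood at 2235 ± 47.4 TPM, the brain creatine kinase Ckb at 2163 ± 308 TPM and the glycolytic enzyme Aldoa at 2104 ± 26.0 TPM. Ndfip1, an adaptor of ubiquitin ligases, stood at 2408 ± 43.5 TPM and the axonal motor Kif5a at 2594 ± 306 TPM.

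**Figure D1:**
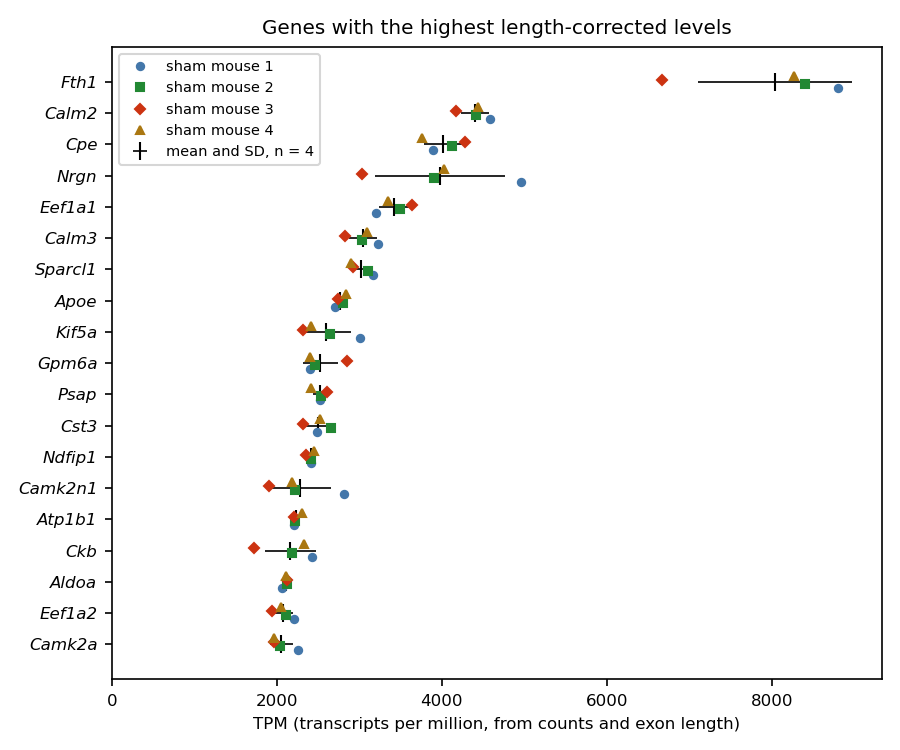
Level of genes with the highest mean TPM in the sham cortex; the x axis gives TPM, each coloured symbol is 1 of the 4 sham libraries, and the black cross gives the mean with its SD. Fth1 lies apart at the top, and Calm2 and Calm3 lie at 4402 and 3043 TPM.

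Neighbours in this order often overlapped between libraries. The levels of Cpe, at 3754 to 4281 TPM over the 4 libraries, lay inside the range of Nrgn, at 3030.3 to 4955 TPM. Fth1, at 6673 to 8801 TPM, was above all other genes in each library. Calm2, at 4169 to 4585 TPM, was above Calm3, at 2826 to 3221 TPM, without overlap between libraries.

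Calm2 and Calm3 lie on different chromosomes, and their messages are told apart at bases that differ between the genes, within the coding part mostly at the third base of a codon. The first 120 of 450 coding bases of each are shown here, joined over the exons, from the GRCm38 transcripts (Calm2 chr17:87434027-87446795, minus strand; Calm3 chr7:16916948-16923843, minus strand). Capitals mark the positions at which they differ.
Calm2: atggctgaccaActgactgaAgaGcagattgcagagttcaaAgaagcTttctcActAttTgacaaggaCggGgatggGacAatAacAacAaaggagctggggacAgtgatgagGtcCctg
Calm3: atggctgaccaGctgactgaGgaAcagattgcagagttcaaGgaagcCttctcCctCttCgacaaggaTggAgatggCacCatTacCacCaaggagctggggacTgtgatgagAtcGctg
Over the 450 bases, 78 positions differed, of which 74 were the third base of a codon, 4 the first base and 0 the second base. The genes shared 82.7% of their coding bases. No shared stretch was longer than 17 bases, against reads of 150 bases per end.

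Ranking by CPM, which does not correct for length, gave another order, and 10 of the 20 highest genes were common to both rankings. The 20 highest genes by CPM had a median annotated length of 4904 bases, against 2677 bases for the 20 highest by TPM. Slc1a2, the main glutamate transporter of astrocytes, ranked 3 by CPM and 71 by TPM with an annotated length of 13133 bases. Among the 10 highest genes by CPM were Kif5a (4168 ± 549 CPM), Camk2a (3519.9 ± 279), Slc1a2 (3418 ± 295), Snap25 (3112 ± 420.2), Mbp (2418 ± 506), Cpe (2403 ± 131), Camk2n1 (2329.6 ± 417) and Syt1 (2158 ± 21.0), each with its SD over the 4 libraries. Snap25 and Syt1 belong to the machinery of vesicle release, and Mbp encodes myelin basic protein. The 100 highest genes together took 13.7 to 14.6% of the counts.

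Several levels were low for genes that are usually abundant. Only read pairs placed at 1 position and in 1 gene were counted. Gapdh, the glycolytic enzyme often used as a reference, stood at 139.6 ± 7.08 TPM against 2104 ± 26.0 TPM for Aldoa and 805 ± 9.83 TPM for Tpi1 in the same pathway. The 79 ribosomal protein genes had a median of 187 TPM and a highest value of 1167 TPM, and 5 of them were under 10 TPM. The genes of the mitochondrial chromosome together took 0.0662 to 0.0895% of the counts, with mt-Co1 highest at 650.3 ± 84.3 TPM. The part of the counting rule in these levels was not tested. Pairs that fell on 2 overlapping genes were not counted for either. Another annotated gene covered 67.9% of the exon bases of the smooth-muscle gene Tagln, 73.5% of those of the metal-binding gene Mt2, 63.4% for Doc2g and 58.1% for Pmch, so the levels of these 4 genes are lower limits.

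The labelled tissue was checked against 20 marker lists. Pan-neuronal markers had a median of 575 TPM, oligodendrocyte markers 270.2, excitatory neuron markers 169, astrocyte markers 115, inhibitory neuron markers 82.7 and microglial markers 52.2 TPM. A median of marker levels ranks transcripts and is no measure of cell numbers. The list medians ranged over 194 to 305 TPM for oligodendrocytes and 158 to 182 TPM for excitatory neurons, without overlap between libraries. The astrocyte list, at 93.9 to 128 TPM, and the inhibitory list, at 75.3 to 94.4 TPM, did overlap.

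Markers of cortical projection neurons were present throughout. Slc17a7, the vesicular glutamate transporter of cortical neurons, stood at 1274 ± 19.2 TPM. The transcription factors Tbr1 and Emx1, which specify cortical projection neurons, stood at 155 ± 15.9 and 45.6 ± 6.39 TPM. By contrast, Slc17a6, the transporter used by thalamic and other subcortical neurons, stood at 30.4 ± 12.8 TPM. Among inhibitory markers, the GABA-synthesising enzymes Gad1 and Gad2 stood at 265 ± 49.7 and 172 ± 16.3 TPM. Gabra6 and Pcp2, defining genes of cerebellar granule and Purkinje cells, were at or under the floor of 3 counts in each library, with 0, 1, 0 and 0 counts for Gabra6 and 3, 0, 1 and 2 for Pcp2 in sham mice 1 to 4. These cell types were thus not detectable at this depth by these 2 genes. Of the other 3 genes of the cerebellar list, Cbln1 and Calb1, which cortical neurons also express, stood at 13.9 ± 3.72 and 140.1 ± 22.8 TPM, and Cbln3 was at 11, 14, 4 and 13 counts.

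Among glia, Slc1a2 and Slc1a3, which take up glutamate into astrocytes, stood at 1133 ± 82.5 and 331 ± 8.51 TPM. Gfap, the intermediate filament that astrocytes raise after injury, stood at 156 ± 25.3 TPM. In oligodendrocytes, Mbp, which encodes myelin basic protein, reached 1251 ± 249.5 TPM and Mobp, another myelin protein, 458 ± 88.4 TPM. Precursor cells were marked by Pdgfra at 30.9 ± 4.53 TPM and Cspg4 at 9.01 ± 0.515 TPM. The median of the oligodendrocyte list was 270.2 TPM and that of the precursor list 33.7 TPM. Single genes of the lists overlapped, and Olig1 of the precursor list, which both stages express, stood at 316 ± 31.6 TPM.

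The vessel wall was represented by lower levels. Cldn5, the tight-junction protein of brain endothelium, stood at 157 ± 24.4 TPM and the glucose transporter Slc2a1 at 114 ± 7.07 TPM. The pericyte markers Rgs5 and Vtn stood at 142 ± 6.67 and 166 ± 13.5 TPM, and Acta2, the actin of smooth muscle, at 59.7 ± 13.002 TPM. The median of the 12 endothelial markers was 36.6 TPM and that of the 10 mural markers 13.8 TPM. Their order was the same in all 4 libraries, without overlap.

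**Figure D2:**
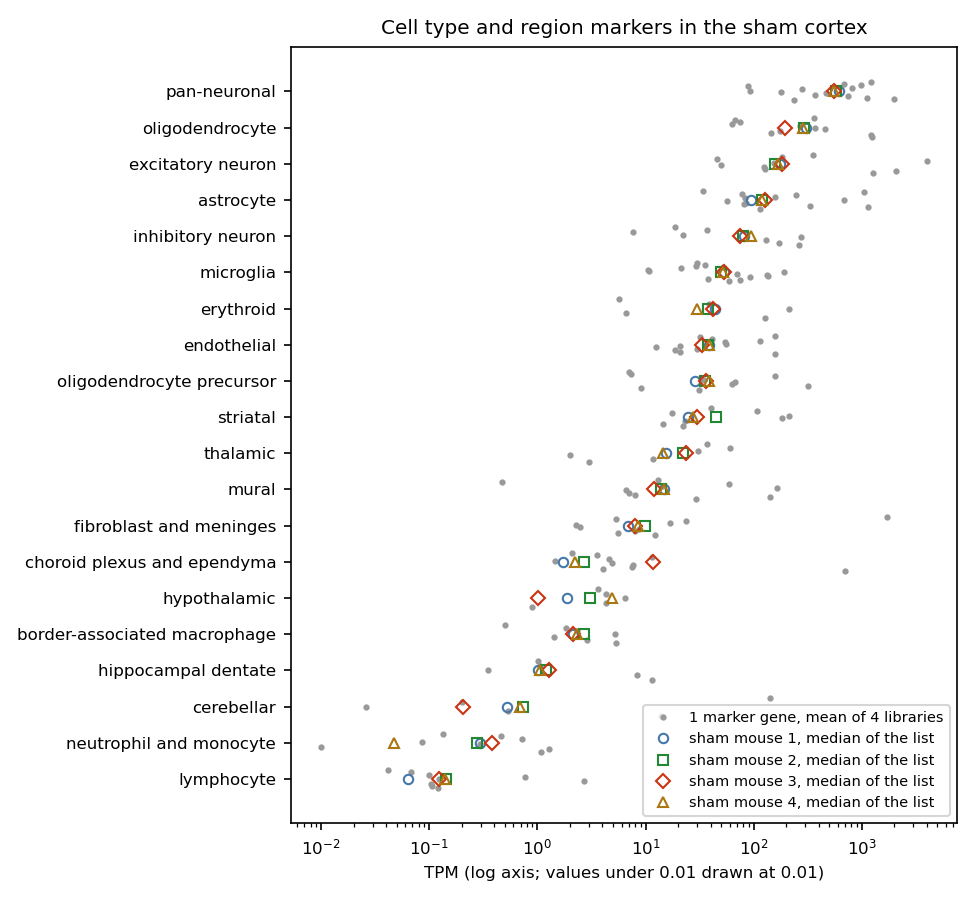
TPM of the genes of each of the 20 marker lists, on a log axis; grey points are single genes (mean of 4 libraries) and open symbols are the median of the list in each sham library. The pan-neuronal and oligodendrocyte lists are highest, lists of circulating leukocytes are lowest, and the median of the choroid plexus list spreads from 1.74 to 11.6 TPM.

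Immune markers were those of resident microglia, with few transcripts of blood leukocytes. Of the microglial genes, the complement component C1qa stood at 136 ± 10.3 TPM, the growth factor receptor Csf1r at 91.6 ± 5.84 TPM and the homeostatic receptor P2ry12 at 75.4 ± 7.83 TPM. All 15 microglial markers were above 10 TPM. The neutrophil gene Ly6g was listed at 0 in all 4 libraries, which allows up to 0.179 CPM in the shallowest, and the T-cell gene Cd3e was at 3, 1, 2 and 2 counts. The medians of the lymphocyte and of the neutrophil and monocyte lists were 0.106 and 0.376 TPM. Border-associated macrophages, which line vessels and meninges, were marked by Mrc1 at 5.36 ± 0.410 TPM and Cd163 at 2.90 ± 0.754 TPM.

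Genes of glial reaction and inflammation were low in all 4 mice. The cytokine gene Il1b was at 3, 8, 11 and 2 counts in sham mice 1 to 4, and Tnf was at 2, 0, 3 and 3. Itgax and Clec7a, which mark reactive microglia, stood at 0.378 ± 0.0841 and 0.824 ± 0.298 TPM, and Lcn2, a marker of reactive astrocytes, was at 3, 2, 12 and 2 counts. Serpina3n and C4b, acute-phase and complement genes that astrocytes and oligodendrocytes can express, were higher at 24.7 ± 6.66 and 14.3 ± 3.03 TPM. Of the 15 genes in this list, 8 had means under 1 TPM, whereas Vim, a filament of astrocytes and vessel cells, stood at 38.3 ± 6.88 TPM. Among 12 interferon-stimulated genes, whose median was 6.94 TPM, Ifi27 was highest at 59.6 ± 5.61 TPM. The interferon list was highest in sham mouse 2, with log2 deviations of -0.05, 0.31, -0.19 and -0.07 from the mean of the libraries, and 8 of its 12 genes were highest there.

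Globin transcripts, which red cells carry, were detected in all 4 libraries. Hbb-bs, the adult beta globin, was at 39.4, 41.4, 41.0 and 29.1 CPM in sham mice 1 to 4. Hba-a1, the alpha globin, was at 25.1, 24.5, 25.1 and 20.7 CPM. Alas2, which makes haem in red cell precursors, was at 3.86, 3.23, 2.99 and 2.57 CPM. All were lowest in sham mouse 4. Paralogous globin genes share near-identical sequence, so the split between Hba-a1 and Hba-a2 is uncertain. The mice were male by the label, and Xist, expressed from the inactive X chromosome of females, was at 1, 3, 4 and 2 counts against 59.3 ± 0.969 TPM for the Y-linked Ddx3y.

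Markers of cortical layers 2 to 6 were detected in all 4 libraries. In layers 2 and 3, the transcription factor Cux2 stood at 43.7 ± 4.76 TPM. Rorb, which specifies layer 4, stood at 20.5 ± 4.55 TPM. Bcl11b and Fezf2, which direct the subcerebral projection neurons of layer 5, stood at 47.4 ± 8.37 and 51.7 ± 3.51 TPM without separating from each other. Tle4, a corepressor of layer 6 neurons, stood at 66.5 ± 4.31 TPM and Foxp2 at 3.92 ± 0.471 TPM. Layer 4 and layer 6 genes differed between mice, without one order over their lists. The mean of the layer 4 list was highest in sham mouse 1, with log2 deviations of 0.47, -0.25, -0.04 and -0.18, and the layer 6 list lowest there, with -0.29, 0.19, 0.03 and 0.06. Rorb was at 70.3, 46.1, 44.4 and 48.1 CPM and Rspo1, a Wnt agonist of layer 4, at 20.1, 8.86, 7.34 and 10.99 CPM. Both were highest in sham mouse 1, and the other 2 of the 4 listed genes were highest in sham mouse 3. Nxph4 of layer 6 was lowest in sham mouse 1, at 1.96, 4.61, 6.15 and 5.61 CPM. Of the 6 layer 6 genes, 2 were lowest in sham mouse 1 and 3 in sham mouse 3.

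Peptides and calcium-binding proteins divide interneurons into subtypes. Sst, which encodes somatostatin, stood at 925 ± 53.3 TPM and Cck, which encodes cholecystokinin and is also made by projection neurons, at 990.1 ± 160.4 TPM. Npy stood at 389 ± 85.5 TPM and Vip at 59.3 ± 5.42 TPM. Sst varied little between the mice, at 152, 162, 157 and 141 CPM. Pvalb, the calcium buffer of fast-spiking basket cells, varied more. It was at 53.8, 31.9, 20.7 and 33.8 CPM, highest in sham mouse 1 and lowest in sham mouse 3, a range of 2.61-fold and of 1.69-fold without sham mouse 3. Lamp5, which marks neurogliaform cells, was in the same order of mice at 288, 199, 145 and 222 CPM. Cck was at 326, 321, 220.5 and 321 CPM and Npy at 55.8, 54.1, 33.6 and 58.8 CPM, both lowest in sham mouse 3.

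The subunits of glutamate receptors stood in a clear order. Among AMPA receptor subunits, which carry the rapid excitatory current, Gria1 stood at 266 ± 27.5 TPM, Gria2 at 189.8 ± 12.7, Gria3 at 147 ± 8.75 and Gria4 at 91.6 ± 2.26 TPM, and no neighbours overlapped. Among NMDA receptor subunits the obligatory Grin1 was highest at 162 ± 13.2 TPM. Grin2b, which predominates early in life, stood at 98.2 ± 11.3 TPM, above Grin2a, the subunit of mature synapses, at 49.8 ± 4.52 TPM, in all 4 libraries. The annotated length of Grin2b is 24842 bases and that of Grin2a 17933 bases, and TPM depends on these lengths. Of the kainate receptors Grik5 was highest at 229 ± 7.34 TPM. Among metabotropic receptors, Grm3 and Grm5, which astrocytes and postsynaptic sites carry, stood at 120.4 ± 14.4 and 102 ± 18.7 TPM and overlapped.

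GABA-A receptors, the chloride channels of inhibition, are assembled mostly from alpha, beta and gamma subunits. Gabra3 stood at 214 ± 14.5 TPM and Gabrb2 at 132 ± 5.05 TPM, without overlap. Gabra4, Gabrd and Gabra5, which serve tonic inhibition, overlapped at 107 ± 2.01, 106 ± 18.6 and 105 ± 9.46 TPM. Gabrp had no count in any library. Gabrd was at 85.5, 71.2, 53.3 and 69.3 CPM, lowest in sham mouse 3, whereas Gabra2 was at 48.4, 59.1, 79.8 and 59.7 CPM, highest there.

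Receptors for acetylcholine, noradrenaline, serotonin and dopamine modulate these synapses. Of the muscarinic receptors, Chrm1 was highest at 119 ± 7.38 TPM. Of the adrenergic receptors, Adra1d and Adrb1 stood at 101 ± 32.5 and 91.1 ± 15.8 TPM and overlapped. Htr2a, a serotonin receptor of projection neurons, stood at 39.7 ± 6.83 TPM and Htr2c at 27.3 ± 18.2 TPM. Htr2c differed widely between the mice. It was at 24.6, 57.9, 111 and 39.0 CPM in sham mice 1 to 4, highest in sham mouse 3, with a range of 4.52-fold and of 2.35-fold without that mouse. Dopamine receptors were led by Drd1 at 22.2 ± 7.003 TPM and Drd2 at 14.6 ± 5.10 TPM.

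The machinery that sustains firing and release was abundant. Atp1b1, the beta subunit of the sodium pump given above, was above Atp1b2, at 469 ± 23.6 TPM, and Atp1b3, at 200.1 ± 7.66 TPM, in all 4 libraries. Of the 20 genes of vesicle fusion and release, Snap25 stood at 1994 ± 250.03 TPM, Vamp2 at 1308 ± 27.7 TPM and the calcium sensor Syt1 at 1127 ± 10.3 TPM. Syt2 and Vamp1, their counterparts in fast-spiking cells, were lower and more variable. Syt2 was at 121, 78.6, 41.5 and 71.5 CPM and Vamp1 at 241, 177, 116 and 176 CPM, each highest in sham mouse 1 and lowest in sham mouse 3.

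Voltage-gated sodium channels drive the action potential. The pore-forming Scn2a, Scn8a and Scn1a stood at 153 ± 18.9, 120.4 ± 8.06 and 93.5 ± 16.4 TPM. Scn4b, an auxiliary subunit of resurgent current, was at 166, 174, 55.3 and 160.2 CPM, with sham mouse 3 far below the other 3. Its range was 3.15-fold, and 1.09-fold without sham mouse 3. Scn1a was also lowest in sham mouse 3, at 295, 243, 185 and 237 CPM, whereas Scn3b, a beta subunit, was highest there, at 80.5, 105, 150.3 and 113 CPM.

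The 17 genes of glycolysis had a median coefficient of variation of 3.46%. Their log2 deviations were 0.003, 0.06, -0.05 and -0.02 in sham mice 1 to 4. Aldoa stood at 2104 ± 26.0 TPM, the lactate dehydrogenase Ldhb at 1182 ± 106 TPM and Ldha at 401 ± 33.6 TPM, with Ldhb above Ldha in all 4 libraries. The neuronal enolase Eno2, at 810.5 ± 35.5 TPM, was above the general Eno1, at 577 ± 17.2 TPM. Hk1, the hexokinase of brain, stood at 216 ± 5.23 TPM against 2.71 ± 0.807 TPM for Hk2. Car9, a gene induced by low oxygen, was at 12, 14, 10 and 0 counts, and Adm, another, stood at 4.57 ± 0.892 TPM. The 9 listed hypoxia-responsive genes had log2 deviations of 0.05, 0.14, 0.05 and -0.24 in sham mice 1 to 4, a range of 0.39. Of these 9 genes, 2 were lowest in sham mouse 4.

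The 10 listed long noncoding RNAs had a median of 105 TPM, against 575 TPM for the pan-neuronal markers, with Kcnq1ot1 lowest at 1.10 ± 0.193 TPM. The highest noncoding gene was outside the list. 2900097C17Rik, a lincRNA at chr2:156388065-156392979 of mm10, stood at 1538 ± 41.0 TPM with a coefficient of variation of 1.27% over the 4 libraries. Snhg11 stood at 563 ± 69.1 TPM and Meg3, the imprinted transcript of chromosome 12, at 367 ± 56.6 TPM. Meg3 was at 1731, 1223, 1671 and 1472 CPM, lowest in sham mouse 2, and the nuclear transcripts Malat1, at 205, 149.95, 184 and 183 CPM, and Miat, at 256, 168, 203 and 199.5 CPM, were lowest there too.

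The spread between the 4 mice was then compared with the error of counting. Of 15486 genes tested, 8212 (53.0%) varied more between the libraries than Poisson counting allows, by a chi-square test with Benjamini-Hochberg adjusted p under 0.05. Without sham mouse 3 this was 5037 of 15642 genes (32.2%). The biological coefficient of variation estimated by edgeR was 12.3%, and the DESeq2 trend at high counts gave 7.53%. The median coefficient of variation over the 13184 genes averaging 50 or more counts was 8.64%, and the median ratio of the highest to the lowest library was 1.21. A range over 2-fold was seen in 492 of these genes (3.73%), of which 234 were highest in sham mouse 3. Without sham mouse 3 it was seen in 182 of 13151 genes (1.38%).

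**Figure D3:**
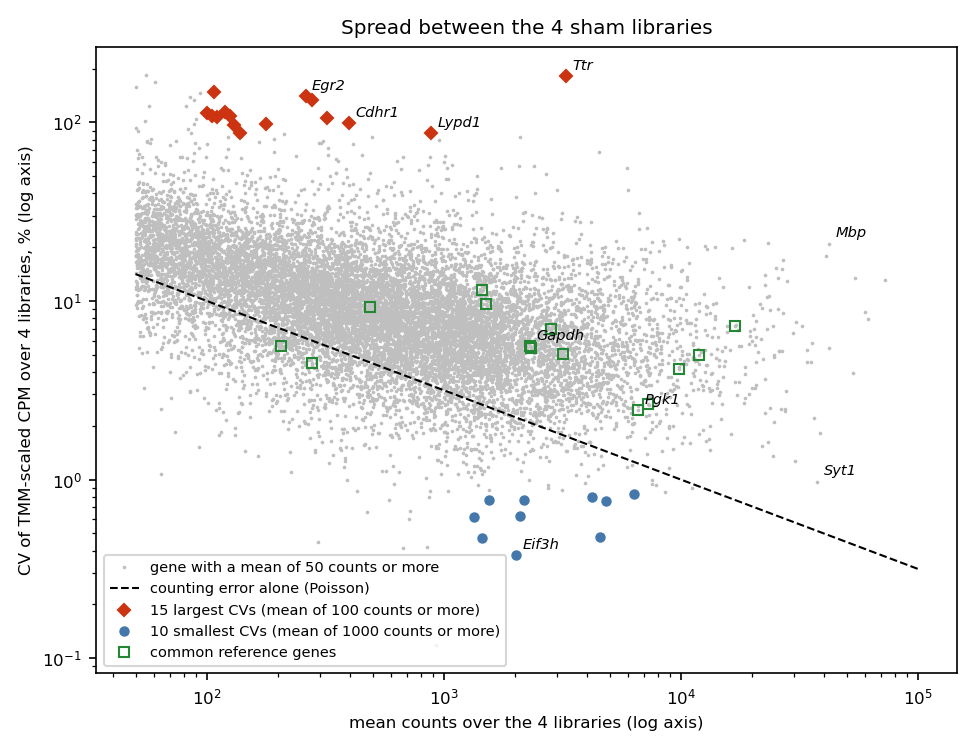
Coefficient of variation between the 4 sham libraries, in percent, against mean counts, both on log axes, with 1 grey point per gene and a dashed line for counting error alone. Choroid plexus genes such as Ttr and immediate-early genes such as Egr2 lie far above the median of 8.64%, and Eif3h, at 0.379%, lies lowest of the 10 steadiest genes (blue), all of them under the line.

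Among genes averaging 1000 or more counts, the 10 with the smallest coefficients of variation included Eif3h, Ap2s1 and Tm9sf3. Eif3h, a subunit of a translation initiation factor, was at 115, 115, 116 and 115 CPM, a coefficient of variation of 0.379%. Ap2s1, of the clathrin adaptor of endocytosis, was at 82.0, 82.8, 82.8 and 82.3 CPM. Tm9sf3, a membrane protein of the Golgi, was at 259.9, 261, 263 and 262 CPM. The other genes of the lowest 10 were Ndufa9 of respiratory complex I (0.620%), Fam19a5 (0.622%), the RNA-binding Serbp1 (0.760%), Rcc2 (0.772%), the mitochondrial protease Afg3l2 (0.773%), Pafah1b2 (0.801%) and the lipid kinase Pi4ka (0.828%). All 10 lay under the counting error of their abundance, so their order among themselves carries no weight.

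Among 14 common reference genes, Pgk1 had the smallest coefficient of variation at 2.45% and Sdha followed at 2.64%. Ppia was at 4.17%, Actb at 4.99%, Rplp0 at 5.02%, Hprt at 5.48% and Gapdh at 5.57%. B2m, of class I antigen presentation, was at 9.57%. The median over the 4244 genes with at least 1000 counts was 5.78%, with B2m above it and the other 7 named here below it.

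Of the 15 genes with the largest coefficients of variation, Ttr, Prlr, Kl and Clic6 are genes of the choroid plexus, Egr2 is an immediate-early gene, and Th, Sp8, Cdhr1 and Lgr5 are expressed in the olfactory bulb. Dlk1, Baiap3, Ecel1, AW551984 and Lypd1 were also among the 15. Baiap3, which acts in the release of dense-core vesicles, was at 5.12, 11.4, 47.3 and 9.65 CPM. Ecel1, a neuronal metalloprotease, was at 3.48, 7.36, 24.7 and 4.91 CPM, and Lypd1, a regulator of nicotinic receptors, at 22.8, 36.2, 115 and 27.0 CPM. Dlk1, a paternally expressed gene, was at 1.36, 5.81, 16.0 and 2.11 CPM. AW551984 was at 3.81, 6.05, 18.1 and 3.57 CPM. Each of these 5 genes was highest in sham mouse 3. Their ranges were 9.24-fold for Baiap3, 7.08-fold for Ecel1, 5.06-fold for Lypd1, 11.7-fold for Dlk1 and 5.06-fold for AW551984. Without sham mouse 3 they were 2.23, 2.11, 1.59, 4.26 and 1.70-fold.

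**Figure D4:**
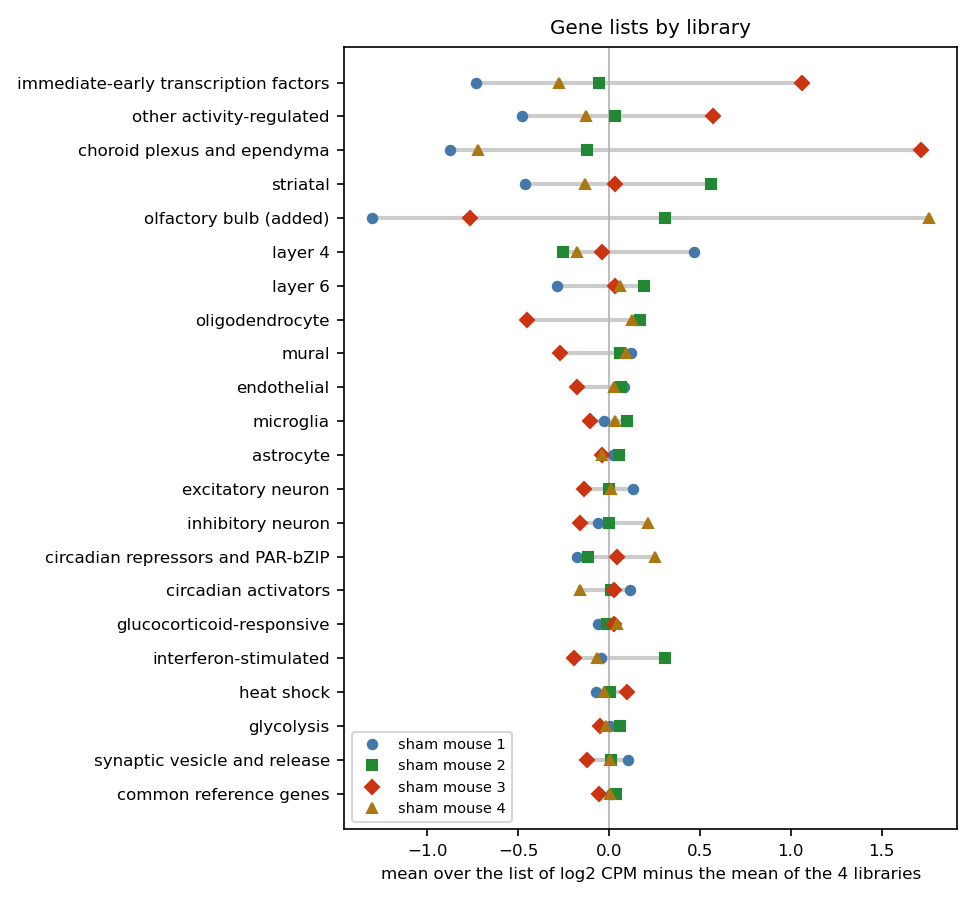
Mean log2 deviation of 22 gene lists from the mean of the 4 sham libraries (x axis, log2 units), with 1 point per library. Choroid plexus, immediate-early, other activity-regulated, striatal and olfactory bulb genes have the widest ranges drawn, and glycolytic, synaptic and reference genes have ranges of 0.11, 0.22 and 0.10.

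The immediate-early transcription factors, which neurons switch on within minutes of firing, differed between the mice as a group. Fos, the best-known of them, had 282, 789, 2066 and 673 counts in sham mice 1 to 4, or 15.3, 47.2, 117 and 39.4 CPM. It was highest in sham mouse 3 and lowest in sham mouse 1, a range of 7.60-fold and of 3.07-fold without sham mouse 3. Egr1, a zinc finger factor of plasticity, was at 164, 278, 605 and 310.0 CPM. Nr4a1, an orphan nuclear receptor, was at 44.5, 96.6, 265 and 72.4 CPM. Egr2 was at 1.14, 7.72, 46.0 and 4.68 CPM, a range of 40.2-fold and of 6.75-fold without sham mouse 3, and Junb, a partner of Fos, at 61.1, 106, 216 and 92.2 CPM. In all 5 genes sham mouse 3 was highest and sham mouse 1 lowest. Npas4, which responds to calcium entry, was at 22.3, 39.7, 46.8 and 48.7 CPM and was the one gene of the 15 that was highest in sham mouse 4.

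Over the whole list of 15 genes, 14 were highest in sham mouse 3 and 11 lowest in sham mouse 1. The log2 deviations were -0.73, -0.06, 1.06 and -0.28, a range of 1.80, and of 0.67 without sham mouse 3. All 15 genes varied beyond counting error, against 53.0% of all genes, and 12 of the 14 with enough counts had a range over 2-fold, against 3.73%. Without sham mouse 3 there were 5, against 1.38%. Egr3 varied least of the list, at 201, 179, 223 and 173 CPM.

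Other genes regulated by activity differed in a like way to a smaller degree. Arc, which acts at synapses on AMPA receptor uptake, was at 107, 229.6, 514 and 184 CPM. The phosphatase Dusp1, which ends MAP kinase signals, was at 31.1, 63.6, 112 and 41.9 CPM and Btg2 at 15.2, 41.0, 72.0 and 25.7 CPM. Bdnf, a growth factor released by active neurons, was at 22.8, 24.0, 38.0 and 26.1 CPM. Of the 18 genes, 15 were highest in sham mouse 3, and the log2 deviations were -0.48, 0.03, 0.57 and -0.13. Vgf, a neuropeptide precursor, had the order of Arc over a narrower range, at 273, 296, 297 and 294 CPM. Other members of the list had other orders. Scg2, a granin, was at 199, 241, 223 and 206 CPM. Homer1 was highest in sham mouse 4 at 205, 199, 191 and 258 CPM, and Inhba was lowest in sham mouse 3 at 16.1, 13.8, 8.41 and 13.9 CPM. A range over 2-fold was seen in 9 of 18 genes, against 3.73% of all genes, and in 4 without sham mouse 3, against 1.38%. The range of the list mean was 1.05, and 0.51 without sham mouse 3.

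Each of 4 genes of the first group that differed between the mice is shown with the 250 bases before its start, from the RefSeq promoter table (GRCm38.p6), since firing acts on such genes through factors that bind there. Capitals mark TGACG or its reverse complement CGTCA, the core of the cyclic AMP response element that CREB binds, and the TATA box TATAAA. The windows are Fos, chr12:85473640-85473889, plus strand; Fosb, chr7:19310046-19310295, minus strand; Nr4a1, chr15:101266596-101266845, plus strand; and Npas4, chr19:4989972-4990221, minus strand.
Fos: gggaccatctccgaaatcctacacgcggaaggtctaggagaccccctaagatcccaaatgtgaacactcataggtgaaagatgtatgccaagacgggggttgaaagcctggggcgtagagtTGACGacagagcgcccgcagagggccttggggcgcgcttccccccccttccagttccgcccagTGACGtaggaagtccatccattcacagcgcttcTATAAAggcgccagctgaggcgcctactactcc
Fosb: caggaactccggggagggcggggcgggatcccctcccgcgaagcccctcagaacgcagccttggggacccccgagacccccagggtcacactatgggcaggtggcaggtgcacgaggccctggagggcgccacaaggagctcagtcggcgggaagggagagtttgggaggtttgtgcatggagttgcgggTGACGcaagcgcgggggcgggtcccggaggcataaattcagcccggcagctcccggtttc
Nr4a1: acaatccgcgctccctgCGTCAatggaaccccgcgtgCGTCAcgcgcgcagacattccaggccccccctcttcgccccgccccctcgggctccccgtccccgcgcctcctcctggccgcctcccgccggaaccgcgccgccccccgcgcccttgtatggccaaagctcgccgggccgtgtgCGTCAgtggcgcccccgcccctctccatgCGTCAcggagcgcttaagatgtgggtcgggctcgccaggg
Npas4: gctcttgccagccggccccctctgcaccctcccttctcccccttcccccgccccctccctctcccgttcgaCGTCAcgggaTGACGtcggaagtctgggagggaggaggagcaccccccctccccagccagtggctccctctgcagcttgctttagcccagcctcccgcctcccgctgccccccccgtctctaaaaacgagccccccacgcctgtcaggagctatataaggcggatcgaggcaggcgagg
Fos holds this core at -129 to -125 and -66 to -62 and a TATA box at -33 to -28, counted from the base before the start. The core was found on either strand, in windows of 250 bases before to 50 after the start, in 11 of 12 immediate-early genes with a window (91.7%). It was found in 9 of 13 other activity-regulated genes (69.2%) and in 6228 of 27025 genes with a window (23.05%). The full element TGACGTCA, which contains this core, was found in Maff alone of the 12, against 2.03% of genes. These matches describe the letters in the window and are no evidence of binding.

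**Figure D5:**
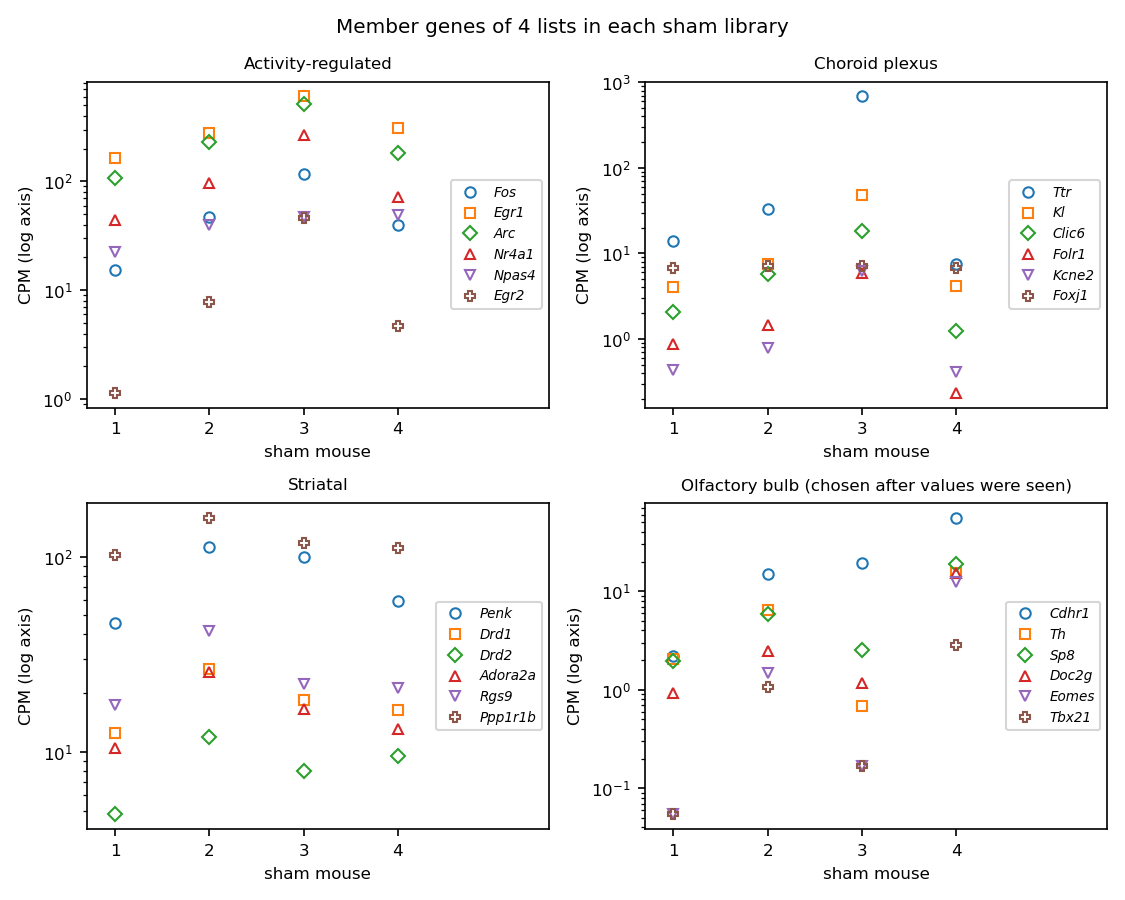
TMM-scaled CPM, on a log axis, of single genes of 4 lists in sham mice 1 to 4, with 1 symbol per gene. Activity-regulated genes other than Npas4 and choroid plexus genes other than Foxj1 peak in sham mouse 3. Striatal genes peak in sham mouse 2 and olfactory bulb genes in sham mouse 4.

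The choroid plexus secretes cerebrospinal fluid in the ventricles and is not cortical tissue. Ttr, the thyroid hormone carrier it secretes, was at 13.8, 32.8, 687 and 7.49 CPM, far highest in sham mouse 3. Its range was 91.7-fold, and 4.39-fold without that mouse. Kl, the ageing-related co-receptor Klotho, was at 4.03, 7.54, 47.6 and 4.15 CPM, and Clic6, a chloride channel protein, at 2.07, 5.75, 18.1 and 1.23 CPM. Prlr, the prolactin receptor, was at 1.36, 2.10, 19.5 and 1.35 CPM. The ranges of Kl, Clic6 and Prlr were 11.8, 14.8 and 14.5-fold, and 1.87, 4.68 and 1.56-fold without sham mouse 3. Of the 10 listed genes 9 were highest in sham mouse 3, with log2 deviations of -0.88, -0.12, 1.71 and -0.72. The summed level of the list was 30.6, 59.1, 783 and 26.6 CPM. Foxj1, which marks the ciliated ependyma that lines the ventricles, was level in the 4 mice at 6.69, 7.12, 7.05 and 6.73 CPM. Htr2c, given above, is also strongly expressed by the choroid plexus, and the part of that tissue in its high value in sham mouse 3 was not tested.

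The choroid plexus genes and the immediate-early genes were thus both highest in sham mouse 3, and the part of either in the position of that library was not tested. Among the other 3 mice, the choroid list had a log2 range of 0.75, and sham mouse 2 was highest in it and in the immediate-early list.

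Genes of the striatum, which lies beneath the cortex, were highest in sham mouse 2. Penk, which encodes enkephalin, was at 45.7, 112, 99.2 and 58.9 CPM. Adora2a and Drd2, which mark striatal neurons of the indirect pathway, followed the same order at both ends, with Adora2a at 10.5, 25.5, 16.6 and 13.1 CPM and Drd2 at 4.79, 11.97, 7.96 and 9.53 CPM. Drd1, of the direct pathway, was at 12.5, 26.5, 18.5 and 16.4 CPM. Rgs9, a regulator of G proteins in these neurons, was at 17.4, 41.6, 22.2 and 21.3 CPM. All 8 listed genes were highest in sham mouse 2, and 7 were lowest in sham mouse 1. The log2 deviations were -0.46, 0.56, 0.03 and -0.13, a range of 1.03, and of 1.02 without sham mouse 3, and 5 of 8 genes had a range over 2-fold, against 3.73% of all genes. This rested on both ends, since 0 genes were left without sham mouse 1 and 1 without sham mouse 2. The summed level of the list was 364, 649.6, 471 and 411 CPM, so the genes were present in all 4 libraries.

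Genes of the olfactory bulb were mostly highest in sham mouse 4. These 12 genes were listed after the largest coefficients of variation had been seen, and their values are a description. Th, the rate-limiting enzyme of dopamine synthesis, was at 2.07, 6.41, 0.677 and 15.4 CPM. The transcription factor Eomes, which marks projection neurons of the bulb, was at 0.0544, 1.497, 0.169 and 12.4 CPM, and Tbx21 at 0.0544, 1.08, 0.169 and 2.87 CPM. Cdhr1, a cadherin of mitral and tufted cells, was at 2.18, 15.1, 19.4 and 55.7 CPM and Sp8, a factor of bulb interneurons, at 1.96, 5.93, 2.54 and 18.9 CPM. Calb2, the calcium buffer calretinin, was at 8.71, 15.03, 22.2 and 49.7 CPM and Lgr5, a receptor of R-spondins, at 3.54, 5.99, 2.43 and 18.2 CPM. The ranges of Th, Cdhr1, Sp8 and Lgr5 were 22.8, 25.6, 9.64 and 7.52-fold, and 7.45, 25.5, 9.62 and 5.15-fold without sham mouse 3. Of the 12 genes, 10 were highest in sham mouse 4, with log2 deviations of -1.30, 0.31, -0.77 and 1.76. The range was 3.06, and it was 3.06 without sham mouse 3 and 1.61 without sham mouse 4. Sham mouse 2 was second in 8 of these 10 genes, while Eomes and Tbx21 were at or near the floor in sham mice 1 and 3. The other 2 listed genes were highest in sham mouse 3, and 1 of them, Slc17a6, was lowest in sham mouse 4.

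Some markers of other regions beneath or beside the cortex also differed. Slc17a6 was at 34.2, 31.5, 59.8 and 24.9 CPM, highest in sham mouse 3, and Prkcd, which thalamic neurons express, at 12.5, 24.2, 11.7 and 10.99 CPM, highest in sham mouse 2. Pmch, of the lateral hypothalamus, was at 6, 4, 3 and 38 counts, highest in sham mouse 4. Of the 5 genes of dentate granule cells, 4 were highest in sham mouse 3, with log2 deviations of -0.12, -0.08, 0.53 and -0.33 for the list. Its range was 0.86, and 0.25 without sham mouse 3. Only 1 of the 4 tested varied beyond counting error, against 53.0% of all genes, and 3 of the 5 had few counts. C1ql2, a secreted synaptic protein of these cells, was at 3.76, 3.71, 6.60 and 1.11 CPM, whereas Prox1, which some interneurons also express, was lowest in sham mouse 3 at 22.8, 22.9, 19.8 and 23.2 CPM.

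Myelin genes were lowest in sham mouse 3. Mbp was at 2753, 2601, 1666 and 2653 CPM and Mobp at 829, 781, 505 and 773 CPM. All 11 oligodendrocyte genes were lowest in that mouse, with log2 deviations of 0.15, 0.17, -0.45 and 0.13. The range of these means was 0.62, and 0.04 without sham mouse 3. The precursor list was also lowest in sham mouse 3, by less, with log2 deviations of -0.03, 0.11, -0.17 and 0.08, and 5 of its 10 genes were lowest there. Among them was Olig1, at 176, 165, 134 and 153 CPM, whereas Pdgfra, at 65.3, 74.1, 83.4 and 61.5 CPM, was the one gene of the list that was highest there. The vascular lists were also lowest in sham mouse 3, with log2 deviations of 0.12, 0.06, -0.27 and 0.09 for mural and 0.08, 0.07, -0.18 and 0.03 for endothelial genes. Their ranges were 0.39 and 0.26, and 0.06 and 0.06 without sham mouse 3. Nrgn was lowest there too, at 1676, 1318, 992 and 1336 CPM. Genes of other kinds were lowest there as well. The mitochondrially encoded list had log2 deviations of 0.06, 0.19, -0.27 and 0.03, with 13 of 15 genes lowest in sham mouse 3, and a range of 0.46, and of 0.16 without it. Of the 15 microglial genes 9 were lowest there, of the 20 synaptic vesicle genes 13 and of the 14 reference genes 10, with list ranges of 0.21, 0.22 and 0.10. Of all genes averaging 50 or more counts, 31.4% were lowest in sham mouse 3. The part of RNA quality, or of choroid plexus RNA, in these low values was not tested.

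Among the repressors and output factors of the circadian clock, 9 of 13 were highest in sham mouse 4. Per2 was at 13.9, 16.2, 22.8 and 32.6 CPM, Dbp, an output factor, at 53.1, 56.0, 53.8 and 86.3 CPM, Nr1d2 at 129, 121, 127 and 167 CPM and Bhlhe40 at 82.3, 94.6, 122 and 137 CPM. Arntl, the activator that peaks in the opposite phase, was at 44.7, 40.9, 40.5 and 30.6 CPM, lowest in sham mouse 4. The log2 deviations were -0.18, -0.12, 0.04 and 0.25 for the repressor list and 0.12, 0.01, 0.03 and -0.16 for the activators. Per1, which is both a clock gene and an immediate-early gene, was highest in sham mouse 3, at 49.4, 56.9, 93.8 and 67.1 CPM. The E-box CACGTG, through which the clock activators act, was found in 5 of 11 repressor genes with a promoter window (45.5%), namely Per1, Cry1, Tef, Ciart and Bhlhe41, in 0 of 6 activators and in 8.09% of all genes with a window.

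The means of the glucocorticoid-responsive and heat shock lists stood within 0.17 log2 units over the 4 mice. The 17 glucocorticoid-responsive genes had log2 deviations of -0.06, -0.01, 0.03 and 0.04. Fkbp5, a co-chaperone of the glucocorticoid receptor, was at 22.9, 26.2, 31.3 and 24.6 CPM and Sgk1, a kinase, at 63.2, 71.8, 72.8 and 55.8 CPM. The heat shock genes had deviations of -0.07, 0.003, 0.10 and -0.03. Hspa8, the constitutive chaperone, stood at 1507 ± 92.6 TPM and Hsp90ab1 at 2047 ± 109.8 TPM, whereas the inducible Hspa1a and Hspa1b stood at 10.3 ± 0.931 and 14.2 ± 2.18 TPM. Single genes of both lists varied beyond counting error nonetheless. Of the glucocorticoid-responsive genes, 12 of 16 tested varied beyond counting error, against 53.0% of all genes, with a median coefficient of variation of 12.99%, against 8.64%, and 2 of 14 had a range over 2-fold, against 3.73%. Of the heat shock genes, 7 of 9 varied beyond counting error, against 53.0% of all genes. Their median coefficient of variation was 8.34%, against 8.64%, and 0 of 9 had a range over 2-fold, against 3.73%.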

How the data were processed

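Right cortex RNA was sequenced from both ends at 150 bases per end (NEBNext Ultra kit). Per the labels, reads were checked with FastQC, trimmed with Trim Galore, aligned to mm10 with HISAT2 and handled with SAMtools 1.9, and DESeq2 1.16.1 is listed. The study compared its groups with limma. The deposited counts are raw read pairs per gene, 1 table per library. The authors' file headers name featureCounts 2.0.1 with GENCODE vM20 exons, without strand, whereas the labels name featureCounts 1.6.3. Pairs with several positions or genes were not counted.

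Only the 4 sham libraries entered any fit or value. Counts were scaled by TMM (edgeR 4.0.16, R 4.3.3) to CPM, and TPM was computed from counts and the listed exon lengths. Per-gene spread was tested by a chi-square test against Poisson counting (3 degrees of freedom) on the 15486 genes kept by filterByExpr. The dispersion was estimated by edgeR with an intercept alone. On simulated data for this spread test, 196 of 200 changed genes were recovered with 8 false calls among 15486 genes. The changed genes had a simulated coefficient of variation of 50% and a mean of at least 100 counts. Recovery of smaller spreads, or at lower counts, was not measured. List deviations are means of log2 CPM with a prior count of 2. Each TPM value is given as mean ± SD (n = 4), and CPM values are given in the order of sham mice 1 to 4. Each library is 1 mouse, so each SD holds the spread between mice together with counting error. Floors cover counting error only.

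Named were the 20 genes highest by TPM and the 10 by CPM, the 15 with the largest coefficient of variation (mean of at least 100 counts), the 10 with the smallest (at least 1000 counts) and genes of the lists, plus the highest noncoding gene and the olfactory bulb genes, chosen after values were seen. Some genes that this rule names are not reported here. The members and lists were chosen with earlier results of these data known. Symbols, gene types and promoters came from GENCODE vM21 and RefSeq tables of GRCm38, and 54723 of 54752 gene identifiers matched. Alternatives were the DESeq2 1.42.0 scaling and trend, other filters, limits and prior counts, and leaving out each library. Python 3.11.15 and matplotlib 3.10.9 were used.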

Additional observations from a re-analysis of the deposited data

Results flagged for a closer look

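In groups of 4, a library was singled out where its distance to the nearest other library, as a share of the whole range of the 4, was above Dixon's 95% critical value. Chance alone singles out about 1 in 20 groups, and 35 of the values tried (198 genes given above and 59 lists) were. That rate is no fair expectation for these values, since some genes were named for their large spread, genes of a list moved together, and some had few counts. Sham mouse 3 was the library in 22 of the 35, 13 times as the lowest and 9 times as the highest.

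Among the lists, sham mouse 3 was apart below the others for the oligodendrocyte list (a share of 0.932), the mural list (0.846) and the alpha-tubulin list (0.873), and above the others for the list of CaM kinase II subunits (0.886). Of these 4 subunits, Camk2d alone was highest in sham mouse 3, at 99.1, 128, 270.3 and 117 CPM (a share of 0.831), while 2 were lowest there. Of the 5 alpha-tubulin genes, 3 were lowest in sham mouse 3. Only Tuba8, at 13.8 to 33.1 TPM over the 4 libraries, had a range over 2-fold, and 0 genes did without sham mouse 3. Sham mouse 1 was apart below the others for the thalamic list (0.843).

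Among genes that were high in sham mouse 3, the choroid plexus genes Ttr (0.963), Prlr (0.959) and Kl (0.919) had the largest shares. The others were Lcn2 (0.917), which had few counts, Lypd1 (0.855), Egr2 (0.853) and Baiap3 (0.850). Genes that were low in sham mouse 3 served several cell types. They were the neuropeptide gene Cck (0.951), Ndfip1 (0.907), the serotonin receptor gene Htr2a (0.893), the sodium channel gene Scn4b (0.882), Prox1 (0.879), the myelin gene Mbp (0.860), B2m (0.860), the pericyte genes Rgs5 (0.859) and Vtn (0.846), and the neuronal enolase Eno2 (0.857).

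Sham mouse 4 was apart above the others for the clock genes Dbp (0.913) and Nr1d2 (0.844), for Eomes of the olfactory bulb (0.883) and for Pmch (0.923). It was apart below the others for Psap (0.955) and for the globin genes Hba-a1 (0.862) and Hbb-bs (0.836). Sham mouse 2 was apart above the others for Foxp2 (0.903), for Prkcd (0.889) and for Gabra6 (1.000), of which it held the single count. Sham mouse 1 was apart above the others for Rorb of layer 4 (0.859) and below them for Vgf (0.873).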

How the results depend on the processing

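No paired analysis was possible because all 4 libraries belong to 1 group and no comparison between groups was made. Of 69 results under other settings that kept all libraries, 64 moved by less than the limits set for them. The count of genes over 2-fold (492) was 2306 with a mean of at least 10 counts, 153 with at least 200 counts and 1941 with a limit of 1.5-fold. The biological coefficient of variation (12.3%) was 7.53% from the DESeq2 trend. Ranking cell types by mean log2(TPM + 1) kept 11 of 20 places.

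Leaving out 1 library in turn gave 5037 to 7190 genes with spread beyond counting error (8212 with all), a biological coefficient of variation of 8.43 to 14.0% and 182 to 423 genes over 2-fold. The lowest of each of these was without sham mouse 3. Lists with a range over 1 were 2 to 4 (5 with all, without the added olfactory bulb list, and with the hypothalamic list, of few counts, at 1.39). The range was 0.67 to 1.80 for immediate-early genes, 0.51 to 1.05 for other activity-regulated genes, 0.75 to 2.59 for choroid plexus, 0.50 to 1.02 for striatal, 0.0432 to 0.623 for oligodendrocyte and 1.61 to 3.06 for olfactory bulb genes. Marker classes kept 16 to 20 of 20 places, the highest genes 19 to 20 of 20, and 14622 to 14657 genes reached 1 CPM in all libraries kept. The 100 highest genes took 14.0 to 14.3% of counts, and 189 to 197 of 200 neighbouring family pairs stayed in order. Genes of a few counts, such as Il1b, Lcn2 and Gabra6, are limited by depth. The olfactory bulb list and the counts of list genes without each library were added after seeing the data.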
